A study of Mus musculus with 8 samples.

Results

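The Notch receptors and ligands are 9 genes of the 32285 in the count tables: the 4 receptors Notch1, Notch2, Notch3 and Notch4, and the 5 ligands Dll1, Dll3, Dll4, Jag1 and Jag2. They were found by their symbols, and all 9 occurred once in the tables. Their RNA was measured by single-nucleus RNA sequencing (snRNA-seq) in the petrous temporal bone (PTB), which encases the inner ear and a lobule of the cerebellum, and in the paraflocculus and flocculus (PF/F), the cerebellar lobules next to it. The mice were 5.5 days old, WT or heterozygous for Tbx1 (Tbx1+/-), a T-box transcription factor gene, and the strain had been backcrossed to C57BL/6J. WT mice were littermates, and the sources used here do not describe the mutant allele further. Each of the 4 groups (PTB WT, PTB Tbx1+/-, PF/F WT and PF/F Tbx1+/-) had 2 libraries, each library pooled 5 mice, and the 2 libraries of a group came from separate batches of animals. The study used both sexes, and the sex of the pooled mice is not given. Frozen bone was pulverized before nuclei were isolated and the PF/F was not. Libraries, not nuclei or mice, were therefore the replicates, and levels are given as UMIs (unique molecular identifiers, 1 per captured RNA molecule) per 1000000 UMIs (CPM) summed over the nuclei of a type in a library.

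Notch is a signal between touching cells. A ligand of the Delta-like or Jagged family on one cell pulls on a receptor of its neighbour, the receptor is cut by an ADAM protease and then by gamma-secretase, and the freed intracellular part joins the DNA-binding protein RBPJ and a Mastermind coactivator to switch on targets such as the Hes and Hey repressor genes. The pathway is known for keeping neural progenitors and glia from differentiating, for artery and mural cell formation in blood vessels, and for restraining chondrocyte and osteoblast maturation in the growing skeleton. Dll3 differs from the other ligands in that it does not activate receptors on neighbouring cells and acts within the cell that makes it.

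The 9 genes lie on 5 chromosomes of the GRCm38 (mm10) genome. Dll4 (chr2:119325784-119335962), Notch1 (chr2:26457903-26516663) and Jag1 (chr2:137081456-137116644) share chromosome 2. Notch3 (chr17:32120820-32166852), Notch4 (chr17:34564268-34588503) and Dll1 (chr17:15367354-15376872) share chromosome 17. Notch2 lies at chr3:98013527-98150361, Dll3 at chr7:28293553-28302238 and Jag2 at chr12:112907819-112929776. The antisense gene Gm17276 overlaps Notch3 on the other strand and is counted separately, as are Gm13568 and 0610009E02Rik beside Notch1 and Gm14207 beside Dll4.

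Promoters are shown for 4 genes that the levels below turn on: Notch3 and Dll4, which led in pericytes and in endothelial nuclei, and the Notch targets Hes5 and Hey2, which were picked because they hold matches to the motif below. Each runs 5′ to 3′ on the gene's own strand from 250 bases before its RefSeq start to 10 bases after it. The core of the RBPJ site, TGGGAA or its reverse complement TTCCCA, is in capitals.
Notch3: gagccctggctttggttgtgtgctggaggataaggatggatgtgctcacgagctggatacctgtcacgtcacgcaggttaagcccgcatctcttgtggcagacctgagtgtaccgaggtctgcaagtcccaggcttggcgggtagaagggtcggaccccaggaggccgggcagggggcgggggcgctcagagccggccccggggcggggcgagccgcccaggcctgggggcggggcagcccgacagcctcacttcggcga
Dll4: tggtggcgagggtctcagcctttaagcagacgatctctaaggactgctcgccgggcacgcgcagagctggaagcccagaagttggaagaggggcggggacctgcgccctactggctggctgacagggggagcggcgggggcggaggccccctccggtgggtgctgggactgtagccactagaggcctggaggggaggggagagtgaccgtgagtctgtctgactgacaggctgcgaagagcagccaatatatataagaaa
Hes5: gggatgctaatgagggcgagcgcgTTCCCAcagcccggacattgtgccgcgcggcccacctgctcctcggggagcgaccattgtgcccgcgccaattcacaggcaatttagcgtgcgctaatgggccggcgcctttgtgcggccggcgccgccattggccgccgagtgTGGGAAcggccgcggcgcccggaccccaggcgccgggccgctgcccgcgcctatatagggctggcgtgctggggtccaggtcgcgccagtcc
Hey2: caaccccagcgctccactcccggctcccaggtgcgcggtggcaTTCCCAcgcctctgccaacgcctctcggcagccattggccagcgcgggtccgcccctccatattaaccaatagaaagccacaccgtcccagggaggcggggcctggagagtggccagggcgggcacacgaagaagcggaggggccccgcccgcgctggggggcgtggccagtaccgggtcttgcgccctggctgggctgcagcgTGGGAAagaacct
On GRCm38.p6 these stretches are chr17:32166881-32167140 (minus strand), chr2:119325534-119325793 (plus), chr4:154960673-154960932 (plus) and chr10:30842774-30843033 (minus). The Hes5 promoter held TTCCCA 226 bases and TGGGAA 82 bases before the start, and the Hey2 promoter held them 207 and 3 bases before it. Over the full 300 bases of RefSeq's promoter windows, which end 50 bases after the start, none of the 9 receptor and ligand genes had a match. For Notch1 the RefSeq start lay 12841 bases from the GENCODE start, so its window is not at the start of the span given above. Of the 32851 windows of this length, 25.6% held at least 1 match and 3.79% held 2 or more. Of the 3 target genes with a window, Nrarp had no match, and Hes1, Hey1 and Heyl had no entry (Nrarp and Hey1 are named after these results were seen). Of the 30 other pathway genes with at least 1 window, 12 (40.0%) had a match in 1 or more, a share of genes that is not on the same footing as the share of windows. A match is a run of letters and not a bound site, and a window without one says nothing of RBPJ elsewhere at the gene.

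PTB libraries held 66835028 to 88677309 UMIs and PF/F libraries 44713226 to 60627200. Annotated nuclei per library numbered 5981 to 9977 in the PTB and 9153 to 13835 in the PF/F. Some types varied more between libraries, such as CT1 with 118 to 1315 nuclei and matured chondrocytes with 48 to 254. The authors' annotation placed 31076 PTB nuclei in 15 types and 48237 PF/F nuclei in 16 types, and libraries shared 11 to 60 barcodes among annotated nuclei, at most 0.503% of the smaller library. In every library each type had at least 12 nuclei. Type labels were checked against markers: Flt1, Pecam1 and Cdh5 were highest in the PF/F endothelial type, Pdgfrb, Rgs5 and Abcc9 in pericytes, Slc1a3, Aldh1l1 and Gfap in astroglia, Pdgfra, Sox10 and Olig2 in the type named oligodendrocyte, and Acp5 and Ctsk in PTB osteoclasts. The osteoclast marker Mmp9 was highest in CT4 (1411 ± 481 CPM, SD, n = 4), with osteoclasts next at 1116 ± 295. The GABA interneuron type had the highest Gad2 level, while its Pax2 level (10.6 ± 7.24 CPM, SD, n = 4 libraries) was the tenth of 16. The type labelled hypertrophic chondrocyte/osteoblast was behind osteoblasts and CP1 for Alpl and ranked sixth of 15 PTB types for Bglap, so no osteoblast marker led there. The labels of CT1 to CT4, the early rhombic lip and the type named Progenitors were not checked against markers. Tbx1, the targeted gene, was at 38.9 and 39.4 CPM in all annotated nuclei of the 2 WT PTB libraries and at 26.3 and 35.7 CPM in the Tbx1+/- ones, and in the PF/F it had 4 to 13 UMIs per library.

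Across cell types the Notch genes had few levels in common. The types were made by clustering the same nuclei, so differences between types are given as levels, with their spread over the 4 libraries of a tissue and without tests. Ranges that do not overlap between types are called separate. All 4 libraries, of both genotypes, entered each mean, and the genotypes are compared afterwards. Types are the annotated ones until barcodes outside the annotation are described. No correction for free RNA was applied to the deposited UMIs. The erythroid markers Hbb-bs, Hbb-bt and Hba-a1 together averaged 346 CPM or more in every annotated PTB type, and the part of free RNA in low or widespread levels was not tested.

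**Figure D1:**
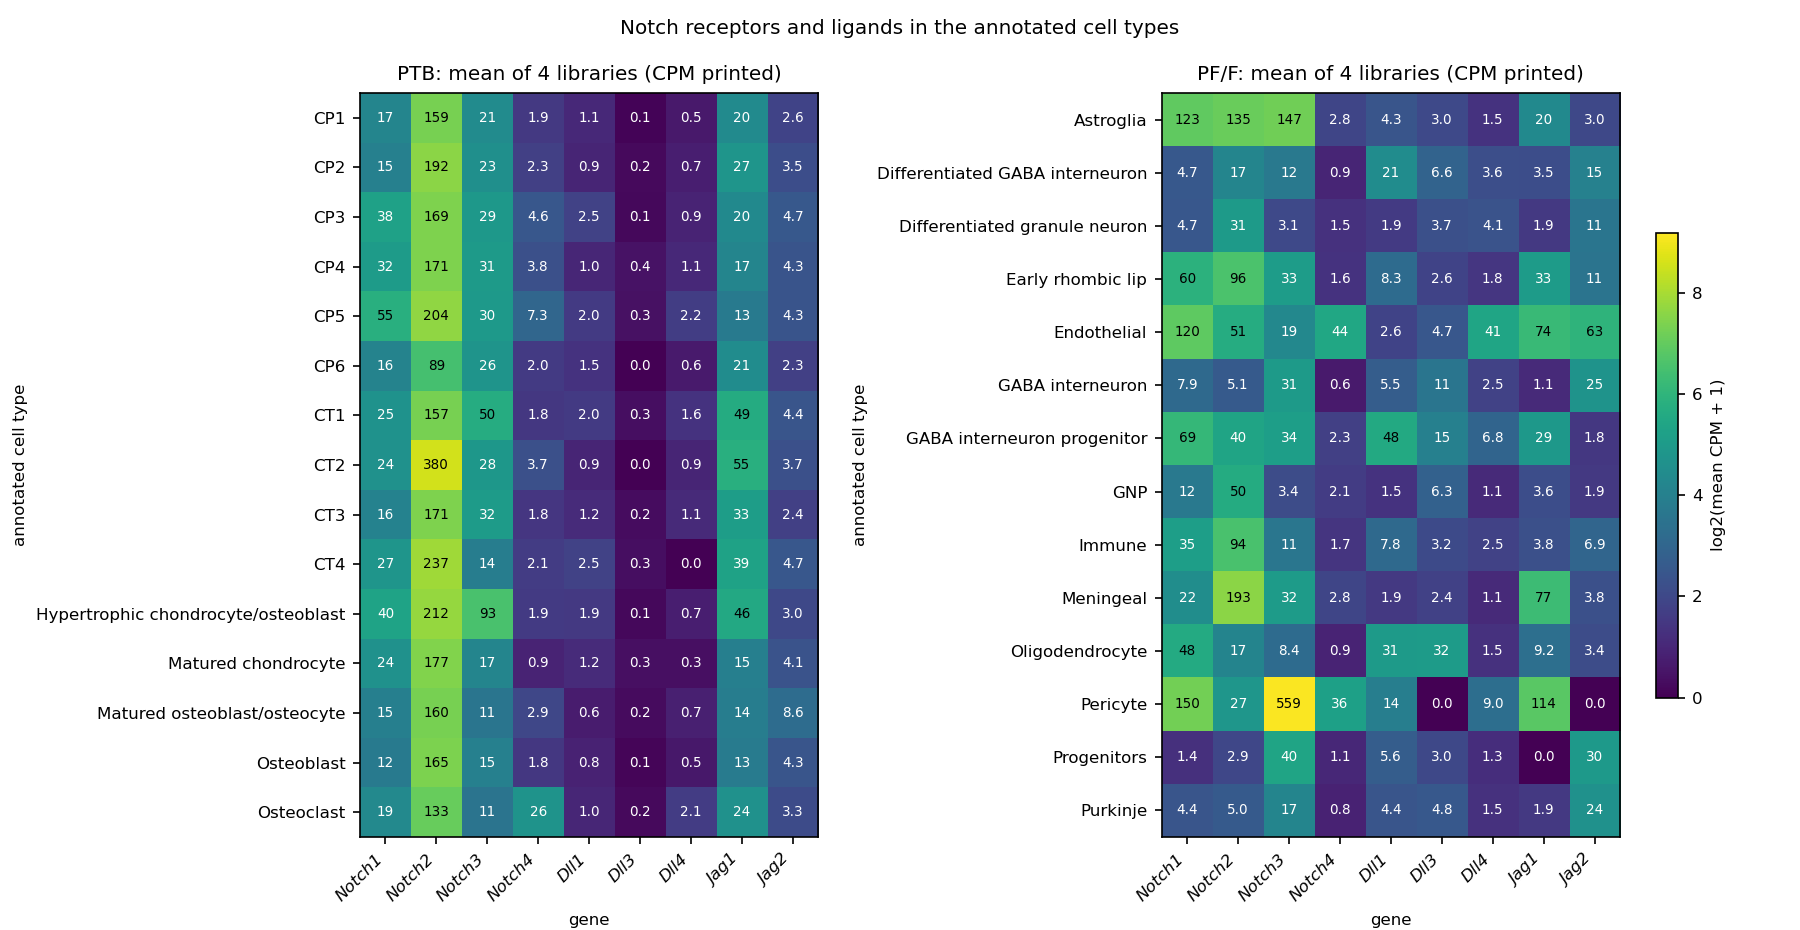
Mean level of the 9 genes (columns) in the 15 PTB types and the 14 PF/F types drawn (rows). Colour is log2(mean CPM + 1) and the printed number is the mean CPM of 4 libraries. Notch2 stood at 89.4 CPM or more in all 15 PTB types, while in the PF/F the endothelial and pericyte rows held the leading levels of 6 of the 9 genes.

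Notch1, the receptor most studied in blood vessels and neural progenitors, was led in the PF/F by 3 types. It was at 172 and 192 CPM in the WT pericytes and at 42.6 and 192 CPM in the Tbx1+/- pericytes, the low value resting on 2 UMIs. In astroglia, where depth is far greater, the 4 libraries gave 110, 143, 117 and 121 CPM (123 ± 14.0, SD, n = 4, 3240 UMIs). Endothelial nuclei had 107, 84.7, 126 and 164 CPM, so that these 3 types overlapped. GABA interneuron progenitors came next at 69.0 ± 6.28 CPM, separate from astroglia and endothelial nuclei but inside the wide pericyte range, followed by the early rhombic lip at 59.8 ± 15.9 and oligodendrocytes at 47.8 ± 2.84. The astroglia markers Slc1a3, Aldh1l1 and Gfap together were at 2693 ± 327 CPM in astroglia, 784 ± 113 in GABA interneuron progenitors and 633 ± 101 in the early rhombic lip, and their part in the Notch levels of these types was not tested. Purkinje nuclei (4.39 ± 1.33 CPM), differentiated granule neurons (4.68 ± 0.552) and differentiated GABA interneurons (4.72 ± 0.989) were lower again, and their ranges overlapped. Astroglia held 15.3% of the UMIs of all annotated PF/F nuclei and 62.6% of the Notch1 UMIs.

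In the PTB, Notch1 was highest in CP5, 1 of 6 chondrocyte progenitor (CP) types. Its libraries had 50.0 and 51.5 CPM in WT and 56.0 and 62.5 CPM in Tbx1+/-, separate from the hypertrophic chondrocyte/osteoblast type at 39.7 ± 1.45 CPM (SD, n = 4). CP3 (37.6 ± 4.07) and CP4 (32.4 ± 4.15) followed, each overlapping the type above it. The other CP types were lower, with CP1 at 17.3 ± 1.14, CP6 at 16.4 ± 3.60 and CP2 at 15.3 ± 3.79 CPM, and osteoblasts were last at 12.4 ± 2.84. CP5 also had the second highest levels of the cartilage genes Col2a1 and Sox9, after matured chondrocytes, but ranked 10 of 15 types for Acan, another cartilage gene (49.1 ± 8.29 CPM). The summed astroglial markers Slc1a3, Aldh1l1 and Gfap were highest among PTB types in CP3 (1462 ± 79.2 CPM, SD, n = 4), CP6 (1159 ± 172) and CP5 (693 ± 91.5), against 2693 ± 327 CPM in PF/F astroglia. Nearly all of this was Slc1a3, a glutamate transporter, with 1455 ± 80.1 CPM in CP3 and 684 ± 92.4 CPM in CP5. Aldh1l1 was at 4.87 ± 0.257 CPM in CP3 and 4.43 ± 0.541 CPM in CP5, and Gfap at 2.29 ± 1.46 and 3.91 ± 1.07 CPM, where PF/F astroglia had 243 ± 25.1 and 133 ± 13.3 CPM. The part of these markers in the Notch1 levels was not tested.

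Notch2, a receptor with known roles in skeletal cells and osteoclasts, had a mean of 89.4 CPM or more in every annotated PTB type. CT2, 1 of 4 connective tissue (CT) types, had 314 and 396 CPM in the WT libraries and 424 and 385 CPM in the Tbx1+/- libraries. All 4 values lay above CT4 (237 ± 10.0, SD, n = 4), which in turn was separate from the hypertrophic chondrocyte/osteoblast type (212 ± 10.0). From there to osteoclasts (133 ± 8.75 CPM) the ranges of neighbouring types overlapped. CP6 stood last and separate, with 85.3, 80.7, 94.2 and 97.4 CPM. The endothelial markers Flt1, Pecam1 and Cdh5 together were also highest in CT2 among the annotated PTB types, at 180 to 247 CPM against 24.1 to 86.9 CPM on average in the others, and their part in the CT2 level was not tested.

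PF/F levels of Notch2 were led by meningeal nuclei, at 180, 190, 196 and 207 CPM, separate from astroglia at 135 ± 23.1 (SD, n = 4). Early rhombic lip (96.0 ± 16.2) and immune nuclei (93.9 ± 22.9) followed and overlapped each other. The early rhombic lip had summed immune markers (Ptprc, Csf1r, Cx3cr1) of 121 to 189 CPM, second to immune nuclei (1515 ± 176), and meningeal nuclei had summed astroglia markers of 1118 ± 196 CPM, second to astroglia, and the part of either in these levels was not tested. Granule neuron progenitors (GNPs) had 49.8 ± 4.53 CPM and differentiated granule neurons 31.1 ± 0.962, and these ranges were separate. GABA interneurons (5.15 ± 2.82) and Purkinje nuclei (5.03 ± 2.82) were among the 3 lowest types, with 14 and 49 UMIs.

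Notch3 is the receptor of vascular mural cells, the smooth muscle cells and pericytes that wrap vessels. Among PF/F pericytes it was at 516 and 518 CPM in WT and at 682 and 518 CPM in Tbx1+/- libraries (559 ± 82.4, SD, n = 4). These values rest on 74 pericytes and 120 UMIs in all, since 1 UMI was worth 28.7 CPM in the smallest of the pericyte sums. In the 16 pericytes with at least 2000 genes the mean was 282 CPM. Astroglia followed, separate from pericytes and from all lower types, with 142, 157, 144 and 147 CPM. No other type passed 40.3 CPM on average, and GNPs and differentiated granule neurons were at 3.39 ± 0.957 and 3.13 ± 0.314 CPM. Astroglia held 73.5% of the Notch3 UMIs of the annotated PF/F nuclei, against 15.3% of all UMIs, and differentiated granule neurons 3.67%, against 35.9%.

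The PTB pattern of Notch3 was led by the hypertrophic chondrocyte/osteoblast type, at 90.6 and 106 CPM in WT and 89.5 and 83.5 CPM in Tbx1+/- libraries. CT1 (50.3 ± 4.42 CPM, SD, n = 4) was next and separate on both sides, and CT3, CP4, CP5, CP3, CT2 and CP6 lay between 26.5 and 31.7 CPM with overlapping ranges. Osteoclasts (10.8 ± 2.72) and the matured osteoblast/osteocyte type (11.0 ± 2.78) were lowest. The hypertrophic type was also the PTB type with the highest sum of the mural markers Pdgfrb, Rgs5 and Abcc9, at 359 to 421 CPM against 213 ± 32.1 CPM in CT4, the next, and 3443 ± 844 CPM in PF/F pericytes. Their part in the Notch3 level was not tested.

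**Figure D2:**
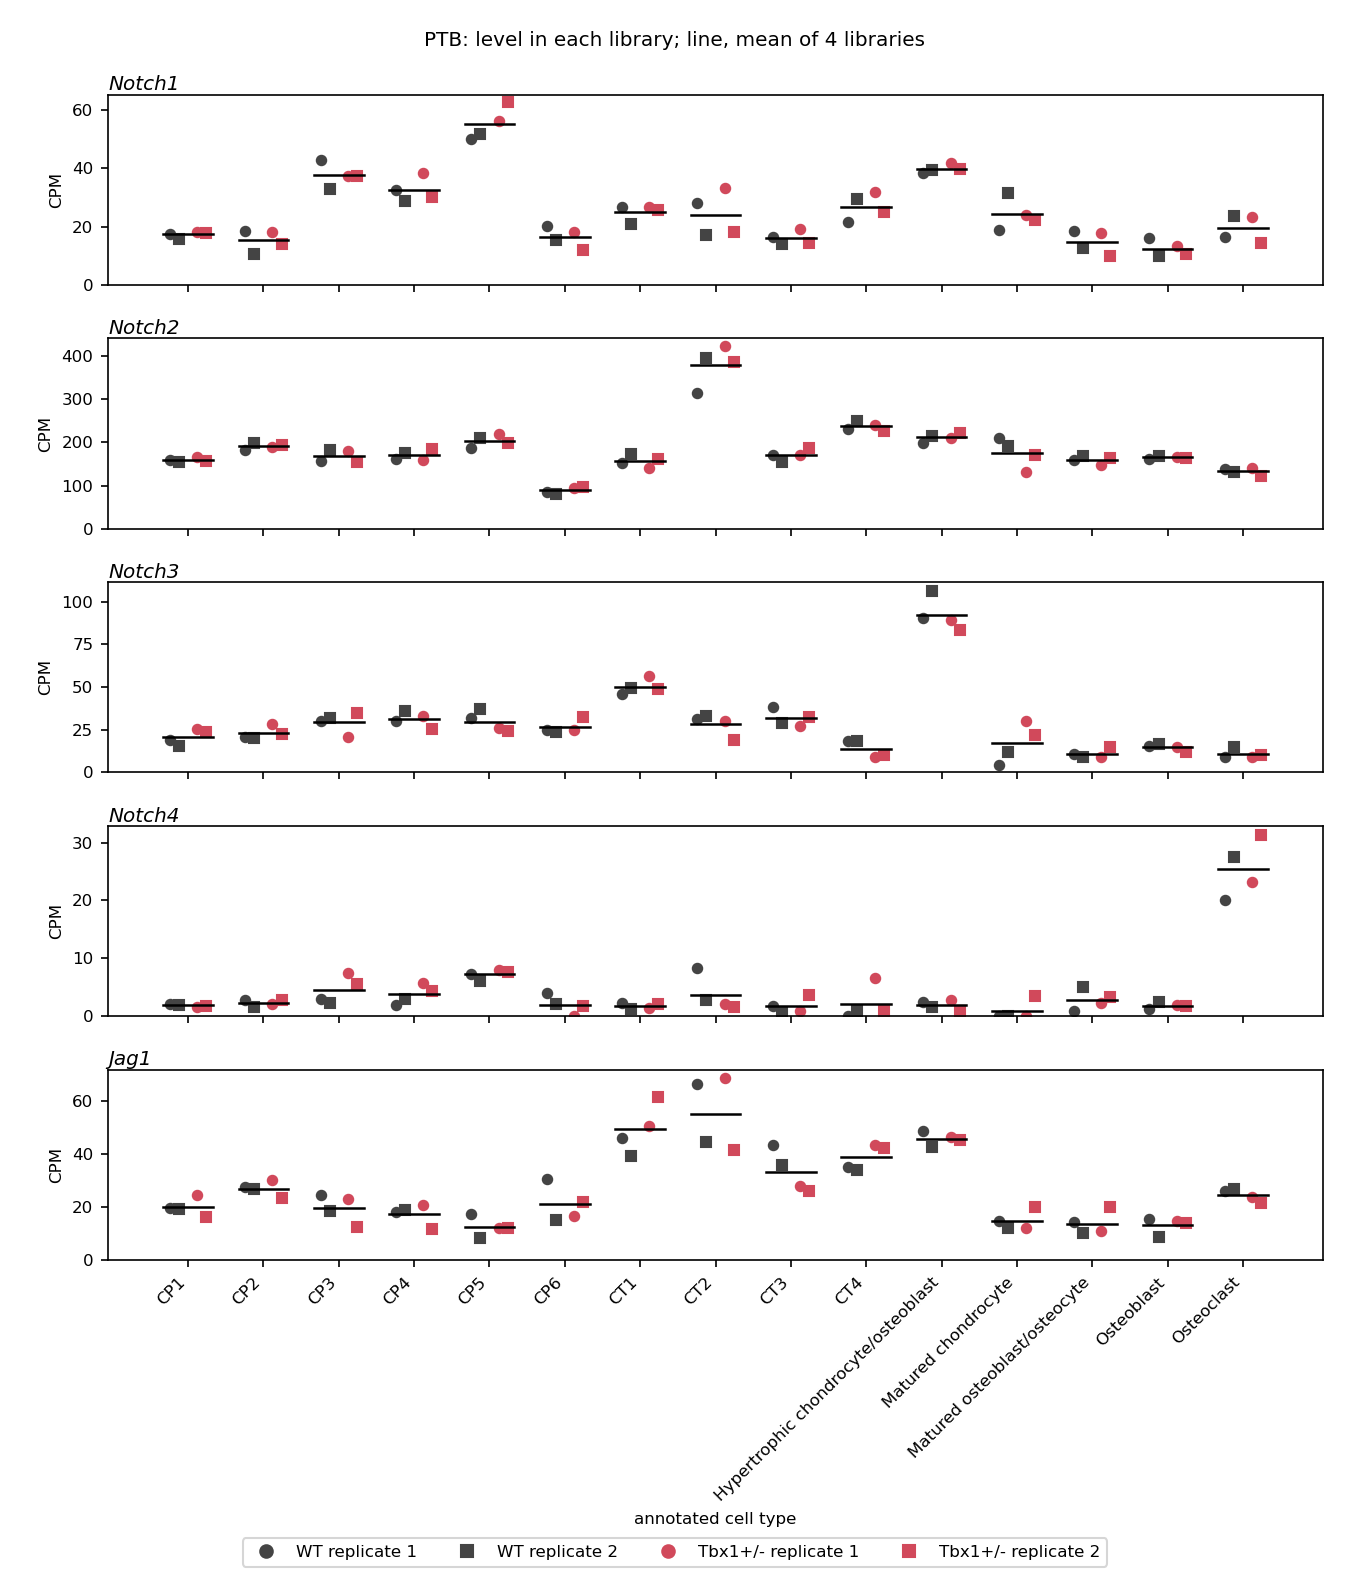
Level in CPM (vertical axis, from 0) of the 4 receptors and Jag1 in each PTB library (points, coloured by genotype and shaped by replicate) for the 15 cell types, with the mean of 4 libraries as a line. CT2 stood above all other types for Notch2, the hypertrophic chondrocyte/osteoblast type for Notch3, CP5 for Notch1 and osteoclasts for Notch4, with no overlap in any of these 4 cases.

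Notch4 is the receptor most closely tied to endothelium. PF/F endothelial nuclei had 45.9, 58.2, 14.0 and 57.0 CPM on 3, 11, 2 and 16 UMIs, and pericytes had 7 UMIs (36.1 ± 24.9 CPM, SD, n = 4, with 1 WT library at 0). In the same pericytes Flt1 was at 375 ± 117 CPM, Pecam1 at 14.3 ± 28.7 and Cdh5 at 0 UMIs, against 2210 ± 287, 341 ± 110 and 284 ± 32.3 CPM in endothelial nuclei. The part of these markers in the pericyte Notch4 level was not tested. Every other PF/F type averaged 2.81 CPM or less.

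Osteoclasts, the bone-resorbing cells of the macrophage lineage, were the leading PTB type for Notch4. Their 4 libraries gave 20.1, 27.5, 23.2 and 31.3 CPM on 267 UMIs, all above CP5 at 7.27 ± 0.804 CPM (SD, n = 4). Osteoclasts held 6.81% of the UMIs of annotated PTB nuclei and 42.4% of the Notch4 UMIs. The summed endothelial markers were at 46.8 to 71.7 CPM in osteoclasts, which ranked ninth of the 15 types. Their part in the osteoclast Notch4 level was not tested. PF/F immune nuclei, which express Csf1r and Cx3cr1 as macrophages do, had 2 Notch4 UMIs (1.65 ± 2.14 CPM).

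Of the ligands, Dll1, which drives lateral inhibition among neural progenitors, was led by PF/F types among the annotated ones. GABA interneuron progenitors, which had the second highest Pax2 level, had 42.6, 57.0, 40.6 and 50.2 CPM. Oligodendrocytes were lower in each library, at 28.1, 41.8, 23.0 and 32.2 CPM, although the 2 ranges overlapped. Differentiated GABA interneurons had 21.5 ± 1.95 CPM (SD, n = 4), and the GNPs, the progenitors of the granule lineage, had the lowest mean of the 16 types at 1.55 ± 0.485. All 15 annotated PTB types were at 2.50 CPM or less.

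Dll3 was highest in oligodendrocytes, at 29.7, 29.2, 29.6 and 40.1 CPM, separate from GABA interneuron progenitors at 15.0 ± 5.04 CPM (SD, n = 4). GABA interneurons followed at 11.0 ± 5.62, and GNPs had 6.33 ± 1.48 CPM. No Dll3 UMI was found in pericytes, which allows a level of up to 13.8 CPM over their 4 libraries. The annotated PTB nuclei of all 4 libraries held 26 Dll3 UMIs in 152806173. Dll1 and Dll3, both high in the oligodendrocyte and GABA progenitor types, had a Pearson correlation of 0.72 over the log levels of the 31 types and of 0.39 over the 16 PF/F types.

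Dll4, the ligand of sprouting endothelial tip cells, was led by PF/F endothelial nuclei. They had 15.3 and 15.9 CPM in the WT and 83.9 and 49.9 CPM in the Tbx1+/- libraries, on 1, 3, 12 and 14 UMIs. Pericytes had 2 UMIs, and no other type averaged over 6.80 CPM, the level of GABA interneuron progenitors. In annotated PTB nuclei the highest mean was 2.20 ± 1.77 CPM in CP5 and all neighbouring ranges overlapped, so no order was read from them. Across the 16 PF/F types the log levels of Dll4 and Notch4 had a Pearson correlation of 0.80, and those of Dll4 and Jag2 one of 0.19. Endothelial nuclei and pericytes were the highest types for Dll4 and Notch4, on 30 and 2 Dll4 UMIs and 32 and 7 Notch4 UMIs. Jag2 had no UMI in pericytes. The part of these sparse types in the correlations was not tested.

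Jag1, a ligand with known roles in vessel walls and in skeletal progenitors, was high in the stromal types of both tissues. PF/F pericytes had 172, 88.8, 107 and 88.7 CPM on 23 UMIs, meningeal nuclei 63.0, 105, 66.3 and 75.6 CPM and endothelial nuclei 74.2 ± 32.4 CPM (SD, n = 4), and these 3 types overlapped. In the 16 pericytes with at least 2000 genes the Jag1 mean was 30.9 CPM. This was below the meningeal and endothelial means over all nuclei, which were not recomputed under this limit. Over all nuclei the next types were the early rhombic lip at 32.5 ± 9.74, GABA interneuron progenitors at 28.8 ± 3.33 and astroglia at 19.5 ± 2.67 CPM. Purkinje nuclei and differentiated granule neurons both averaged 1.88 CPM, and the type named Progenitors had no UMI, which allows up to 2.32 CPM.

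CT2 (66.4, 44.6, 69.0 and 41.5 CPM), CT1 (49.5 ± 9.32, SD, n = 4) and the hypertrophic chondrocyte/osteoblast type (45.8 ± 2.46) were the leading PTB types for Jag1, with overlapping ranges. CT4 and CT3 came next, so that all 4 CT types were among the first 5. CP5, the leading type for Notch1, was the last for Jag1, at 12.5 ± 3.75 CPM. Over the 15 PTB types the Pearson correlation of the log levels of these 2 genes was 0.08, whereas over the 16 PF/F types it was 0.85. The points of such a correlation share their 4 libraries, and the 2 tissues differ in depth and in how their nuclei were prepared.

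Jag2, the other Jagged ligand, was led by endothelial nuclei of the PF/F, with 45.9, 42.4, 77.0 and 85.6 CPM on 46 UMIs. Next were the Progenitors type (30.2 ± 20.7 CPM, SD, n = 4), GABA interneurons (25.2 ± 15.2) and Purkinje nuclei (18.2, 31.5, 28.3 and 18.8 CPM). Differentiated granule neurons had 11.0 ± 1.07 CPM and held 42.0% of the Jag2 UMIs, near their 35.9% share of all UMIs. Astroglia (3.02 ± 0.440), GNPs (1.91 ± 0.511) and GABA interneuron progenitors (1.81 ± 0.541) were low, and in all 3 of these types the Notch1 mean was above that of each neuronal type. Pericytes had no Jag2 UMI, which allows up to 13.8 CPM. Across the 16 types Jag2 and Notch1 had a Pearson correlation of -0.49, and Jag2 and Jag1 one of -0.45. Among annotated PTB types, Jag2 averaged 8.65 ± 2.48 CPM in the matured osteoblast/osteocyte type and 4.73 CPM or less in the others.

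**Figure D3:**
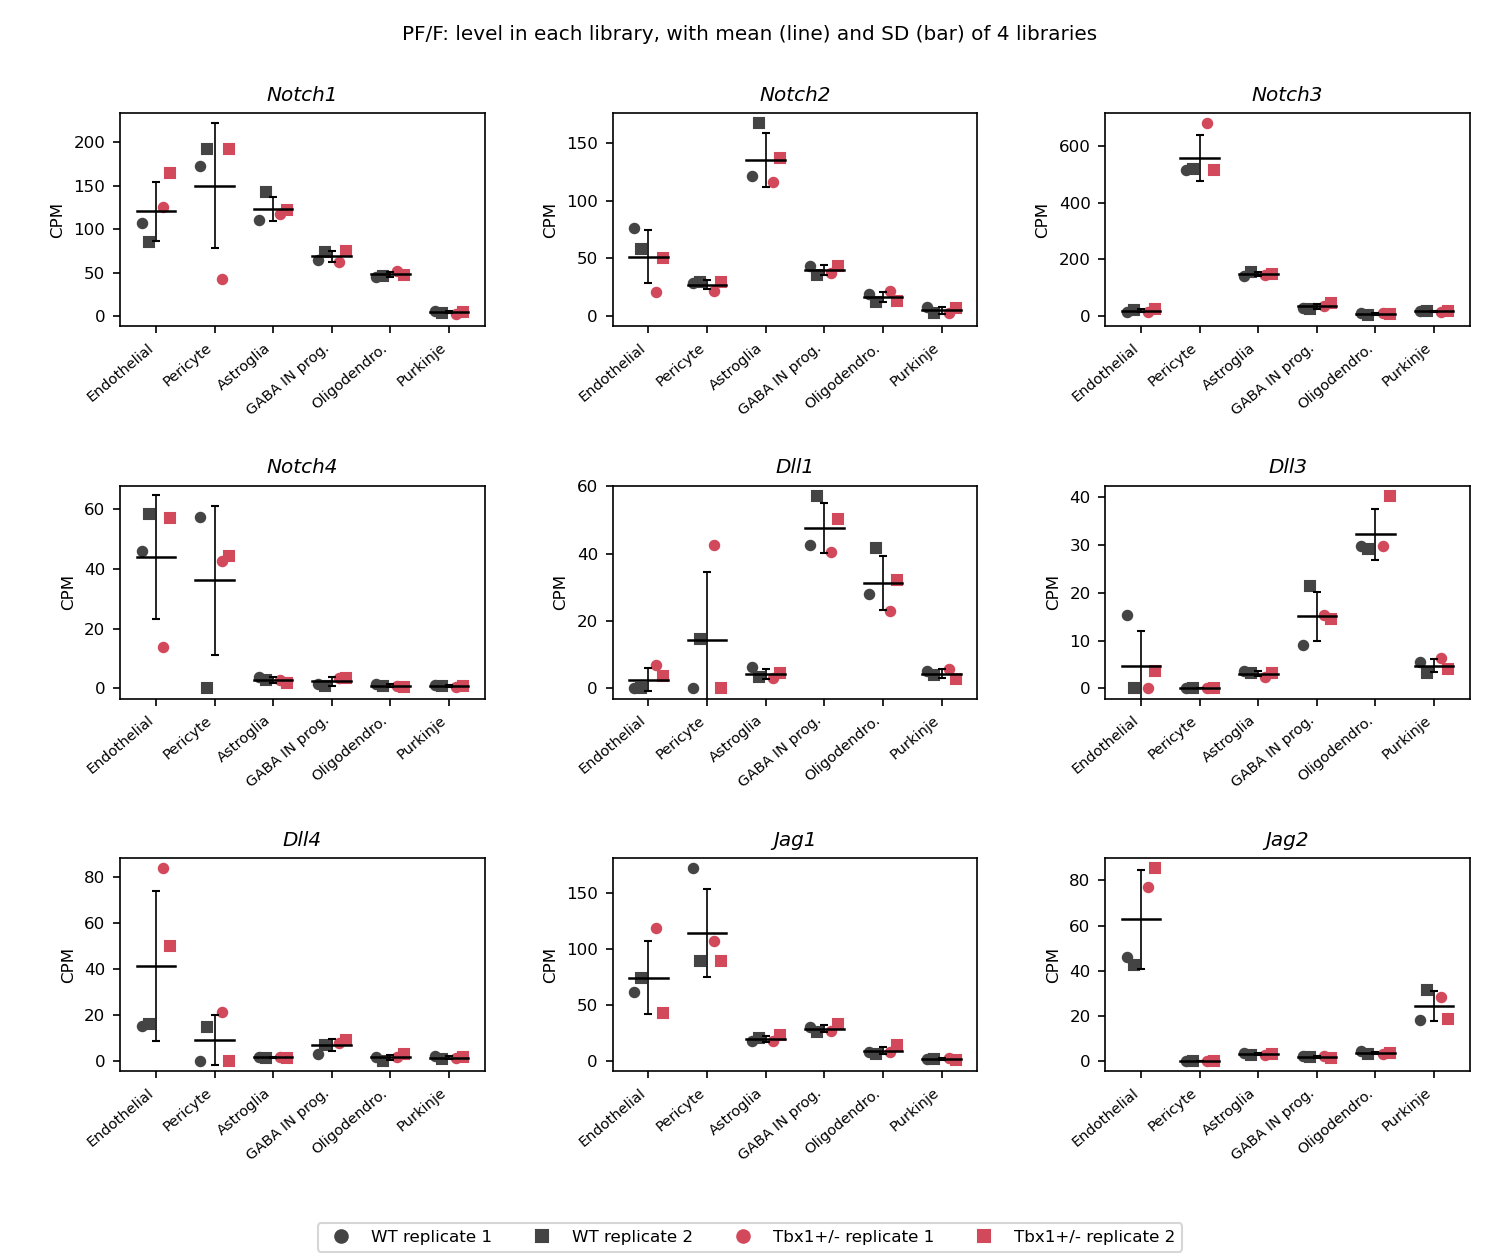
Level in CPM of the 9 genes in each PF/F library (points) for 6 cell types, with the mean of the 4 libraries (line) and their SD (bar). Notch3 in pericytes (516 to 682 CPM) and Dll3 in oligodendrocytes (29.2 to 40.1 CPM) stood clear of the other types, whereas the 4 endothelial points of Notch4 and Dll4 were spread from 14.0 to 58.2 and from 15.3 to 83.9 CPM.

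Genes with the most similar patterns were sought over the same 31 types among 16400 genes, by the Pearson correlation of log2(mean CPM + 1). Cldn5 (0.845), which builds endothelial tight junctions, was the nearest to Dll4, with Slc38a5 (0.839) and Car4 (0.834). For Notch4 the nearest were Scarf1 (0.880), an endothelial scavenger receptor, Mff (0.852) and Adora2a (0.826). Of these, Scarf1 had its highest mean in pericytes, at 95.8 CPM. Notch3 was nearest to Gm17276 (0.835), the gene that overlaps it on the other strand, then to Zbtb37 (0.790) and to Hey2 (0.788), a Notch target. The nearest to Dll3 were Rab33a (0.922), Gm6588 (0.908) and Myt1 (0.894), a factor of neural and oligodendrocyte progenitors, and to Dll1 they were Gm38505 (0.853), Lbx1 (0.832) and Tfap2b (0.832), both of the latter transcription factors of GABAergic lineages. Notch1 had Calcrl (0.840), Zfp36l1 (0.819) and Mfge8 (0.818), and Notch2 had Gm37494 (0.930), Fgfr1op2 (0.927) and Parp4 (0.926). Jag1 had Phf13 (0.884), Vim (0.879) and Nid1 (0.868), and Jag2 had Far2os1 (0.861), Dlk2 (0.831), itself a non-canonical Notch ligand, and Shank3 (0.820). The highest mean of Phf13 was 12.7 CPM, in pericytes, where 3 UMIs over the 4 libraries are worth 13.8 CPM. Types of both tissues were pooled, so levels that differ between the tissues enter these correlations, and this part was not separated. With 16400 genes compared over 31 points that share libraries, these values rank genes and carry no test.

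The rest of the pathway was described by a list of 39 genes. Among the targets, Hes5 was highest in astroglia (154 ± 24.5 CPM, SD, n = 4) and next in GABA interneuron progenitors (65.9 ± 11.3), whose astroglia markers are given above, while PTB types had 1.15 CPM or less. Hes1 was highest in pericytes (152 ± 83.2), then endothelial nuclei (89.6 ± 48.5) and astroglia (72.5 ± 22.6), and its leading PTB type was the matured osteoblast/osteocyte (66.6 ± 5.29). Heyl stood at 97.9 ± 31.0 CPM in pericytes and at 12.7 ± 3.94 in the next PF/F type, meningeal nuclei, and in the PTB at 32.5 ± 3.24 CPM in the hypertrophic chondrocyte/osteoblast type and 10.4 ± 3.36 in CP4. Hey2 had the same leading types, at 43.3 ± 35.1 CPM on 8 UMIs in pericytes and 12.2 ± 3.40 CPM in the hypertrophic type. In both tissues these 2 genes thus had their highest mean in the type where Notch3 had its own.

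Among the genes of receptor processing Adam10, the protease of the cut that follows ligand binding, reached 422 ± 18.6 CPM (SD, n = 4) in the matured osteoblast/osteocyte type, and Adam17 (114 ± 12.5), a related protease, was highest in PF/F immune nuclei. Of the genes that make ligands active by ubiquitination, Mib1 was highest in GABA interneuron progenitors (208 ± 19.2) and Mib2 in the Progenitors type (29.6 ± 5.28). Lfng, whose sugar transfer shifts receptors towards Delta-like ligands, was highest in astroglia (47.5 ± 4.66) and, in the PTB, in osteoclasts (26.7 ± 1.95, against 5.04 ± 1.15 in the next type). Pofut1 (58.0 ± 10.3, CT1) and Poglut1 (40.4 ± 5.10, GABA interneuron progenitors) completed the glycosylation genes with the highest levels.

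In the nuclear complex, the DNA-binding partner Rbpj was at 684 ± 203 CPM (SD, n = 4) in PF/F immune nuclei, against 217 ± 25.1 CPM in CT1, its leading PTB type. The coactivator Maml2 reached 1792 ± 127 CPM in CT4. Numb, which antagonises Notch in dividing cells, was also highest in immune nuclei (395 ± 81.4), Itch in osteoblasts (358 ± 15.5) and Dtx3 in pericytes (152 ± 42.5). Of the non-canonical ligands, Dner reached 1255 ± 94.8 CPM in Purkinje nuclei, where it is known to signal to Bergmann glia, Dlk1 reached 79.0 ± 16.3 in CT1 and Dlk2 reached 50.9 ± 24.6 in the Progenitors type.

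Endothelial and mural nuclei have no type of their own in the PTB annotation, so the 32101 PTB barcodes outside it were grouped by markers. The study removed nuclei with few genes and outliers in UMIs, genes or mitochondrial reads. It kept more PTB nuclei than are annotated here and fewer than all PTB barcodes, so these barcodes include ones it dropped. By those totals more of them were dropped than kept, and which ones is not given. A barcode joined a group with at least 3 UMIs over a list of 3 marker genes and more than over any other list. This gave 2936 barcodes in the endothelial group (Flt1, Pecam1, Cdh5) and 773 in the pericyte or mural group (Pdgfrb, Rgs5, Abcc9), and 16702 barcodes joined none of 7 groups. The Notch genes were not used to form the groups.

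The endothelial group had the highest levels of 5 of the 9 genes. Its Notch4 levels were 55.0 and 53.1 CPM in WT and 52.7 and 59.1 CPM in Tbx1+/- libraries (924 UMIs), against 9.84 ± 2.17 (SD, n = 4) in the mural group, the next. For Dll4 they were 34.5, 15.5, 20.5 and 17.1 CPM, against 5.89 ± 1.25 in the mural group. Dll1 was at 19.2, 21.2, 14.5 and 13.7 CPM there, against 3.70 ± 0.665 in the epithelial group. All 3 genes were separate from every other group. Notch1 was as well, at 99.8 ± 6.92 CPM against 74.6 ± 3.79 in the glial group, but Jag2 (30.9 ± 4.59) overlapped the neuron group (26.3 ± 3.46). In the annotated PTB types the highest Dll1 and Dll4 means had been 2.50 and 2.20 CPM, and in the PF/F endothelial type Dll1 had 2 UMIs (2.64 ± 3.35 CPM).

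Notch3 led in the mural group of the PTB, as in PF/F pericytes, with 251 and 229 CPM in WT and 243 and 127 CPM in Tbx1+/- libraries, against 45.7 ± 14.9 CPM in the muscle group, the next. The epithelial group led for Notch2 (239 ± 13.1 CPM against 172 ± 10.3 in the immune group). Jag1 was alike in the mural (56.6 ± 10.6), endothelial (53.3 ± 10.7) and neuron (50.1 ± 8.60) groups. Dll3 averaged 0.876 CPM or less in all 8 sets of barcodes.

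The study kept 48237 PF/F nuclei after its filters, the number annotated, so all 9721 PF/F barcodes outside the annotation were ones it had dropped. Outliers in UMIs were among those its filters removed. The same grouping of these barcodes gave an endothelial group of only 104 barcodes (10 to 38 per library). That group had more UMIs, 1131924, than the 677717 of the 183 annotated endothelial nuclei, that is, far more per barcode. Notch4 was at 80.4 and 120 CPM in WT and 100 and 111 CPM in Tbx1+/- libraries there (103 ± 17.1, SD, n = 4, 123 UMIs). Dll4 was at 100 and 48.5 CPM in WT and at 130 and 70.4 CPM in Tbx1+/- libraries (92 UMIs), and its genotypes overlapped. Jag2 averaged 130 ± 44.1 CPM, Notch1 215 ± 33.1 and Notch3 109 ± 12.4, while Dll1 had 1 UMI. The mural markers Rgs5 (698 ± 198 CPM), Abcc9 (238 ± 60.1) and Pdgfrb (155 ± 48.4) were also present in these barcodes, and their part in the levels was not tested.

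**Figure D4:**
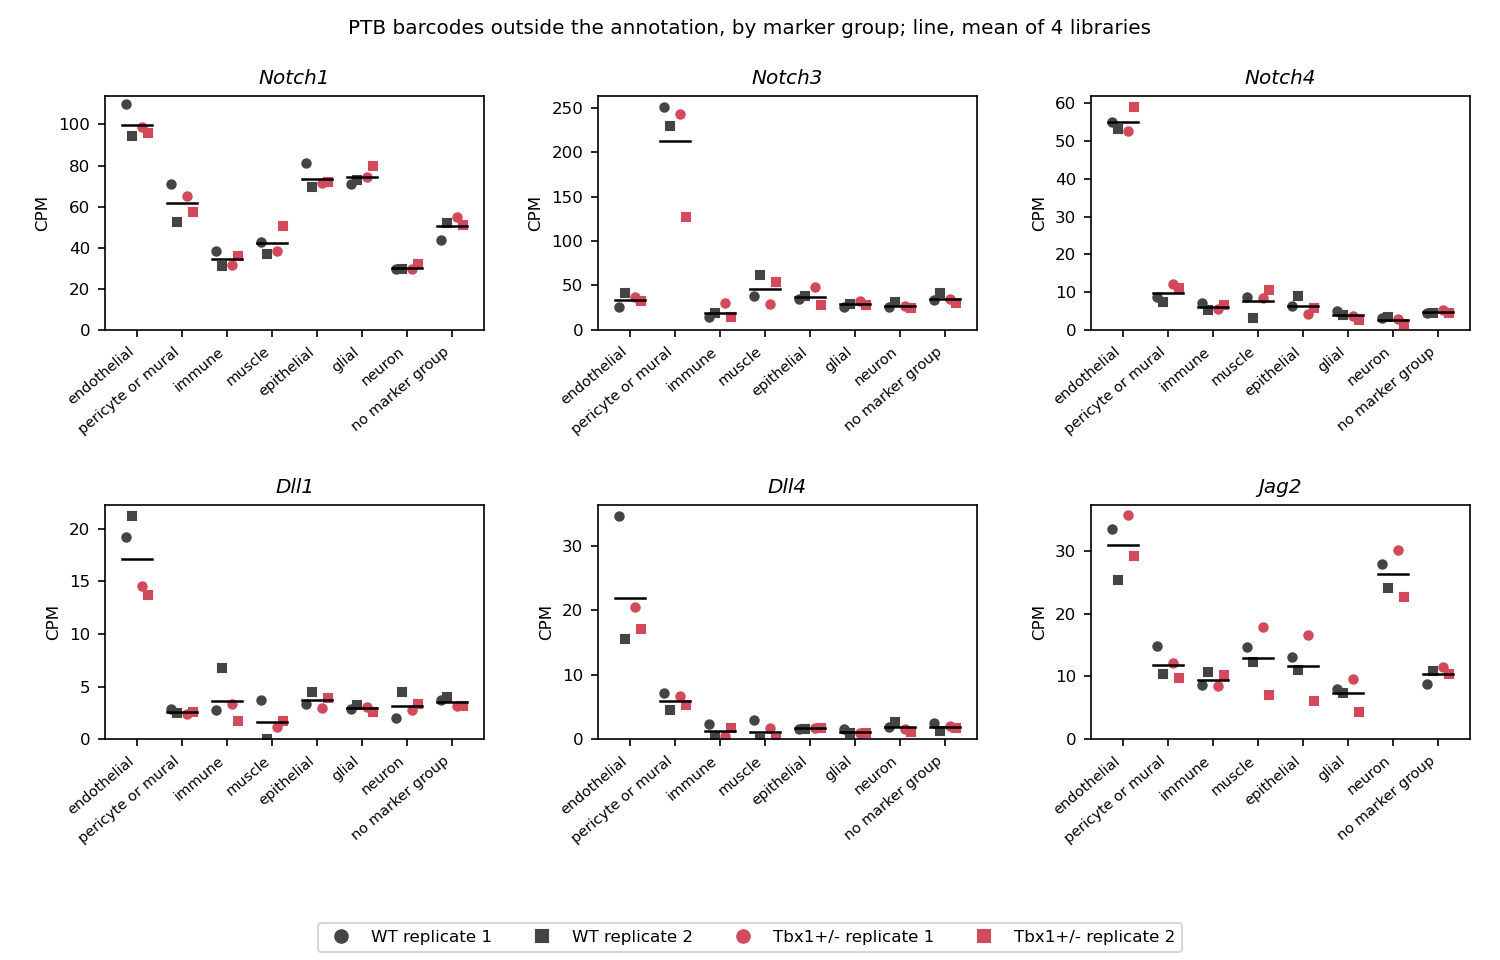
Level in CPM (from 0) of 6 genes in each PTB library (points) for 7 marker groups of barcodes outside the annotation and for barcodes in no group, with the mean of 4 libraries as a line. The endothelial points of Notch4 (52.7 to 59.1), Dll1 (13.7 to 21.2) and Dll4 (15.5 to 34.5) lay above all other groups, and for Dll1 both Tbx1+/- points lay below both WT points.

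The study's question was what loss of 1 Tbx1 allele changes in these cells, and here it was asked of the Notch genes. In the sums over all annotated nuclei, a lower level can come from fewer nuclei of a type or from a lower level within it. The sums alone do not tell these apart, and the tests within single types, given below, hold the type fixed. The paper reports a lower ratio of chondrocytes to osteoblasts in the Tbx1+/- PTB. In the sums no receptor or ligand differed between genotypes by edgeR's quasi-likelihood test at an adjusted p under 0.05 and a change over 1.5-fold. The paper reports a significant reduction of Tbx1 in the main PTB cell populations of Tbx1+/- mice. In the sums here Tbx1, the targeted gene, was not called by this test in the PTB either. Its log2 change (Tbx1+/- minus WT) was -0.34 ± 0.17 (SE, 95% interval -0.76 to 0.08, edgeR unadjusted p = 0.0951). A gene without a call is thus not shown to be unchanged. In the PTB 8 members passed the filter on low counts (Dll3 did not) and 0 were called, with 0 at an unadjusted p under 0.05. Of all 20250 genes tested 0% were called, with 217 at an unadjusted p under 0.05 by edgeR and 115 by DESeq2, which called 0 genes as well. In the PF/F all 9 were tested and 0 called, with 0 at an unadjusted p under 0.05, among 20756 genes of which 0% were called, 99 being at an unadjusted p under 0.05 by edgeR and 29 by DESeq2.

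The values behind this were close. Notch2 in the PTB was at 170 and 184 CPM in WT and 181 and 183 CPM in Tbx1+/- libraries, a log2 change (Tbx1+/- minus WT) of 0.04 ± 0.09 (SE) with a 95% interval of -0.19 to 0.26. Notch1 (25.6, 20.9, 26.0 and 22.0 CPM) and Jag1 (29.5, 23.1, 28.8 and 23.8 CPM) were lower in replicate 2 of both genotypes, and their changes were 0.04 ± 0.16 and -0.01 ± 0.17. Notch3 changed by -0.05 ± 0.12, Notch4 by 0.19 ± 0.20 and Jag2 by 0.23 ± 0.30. For the scarce Dll1 (201 UMIs) and Dll4 (131 UMIs) the intervals ran from -0.92 to 0.67 and from -0.91 to 0.71, and those of Notch4 and Jag2 from -0.31 to 0.70 and from -0.54 to 1.00, so a change of 1.5-fold lay inside all 4 intervals. The median change of the 8 genes was 0.01, against -0.0030 for all genes tested. The groups overlapped for all 8, while 23.2% of all genes had groups that did not.

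In the PF/F the fitted estimates were below 0 for 7 of the 9 genes, and none of these changes passed the test. Notch2 was at 50.3 and 51.7 CPM in WT and 47.6 and 48.6 CPM in Tbx1+/- libraries (-0.07 ± 0.10, SE, 95% interval -0.32 to 0.19), and Notch1 at 31.6 and 29.6 against 29.4 and 28.4 CPM (-0.06 ± 0.11, -0.33 to 0.21). Their groups did not overlap, which held for 2 of 9 members and for 17.9% of all genes tested. Dll1 (-0.13 ± 0.15), Dll3 (-0.10 ± 0.16), Notch3 (-0.06 ± 0.11), Notch4 (-0.10 ± 0.22) and Jag2 (-0.01 ± 0.17) were also below 0, and Dll4 (0.10 ± 0.21) and Jag1 (0.0045 ± 0.15) above it. The adjusted p by edgeR was 1.00 for every member in both tissues. For Notch1, Notch2, Notch3, Dll1, Dll3, Jag1 and Jag2 the PF/F intervals lay within 1.5-fold in both directions.

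**Figure D5:**
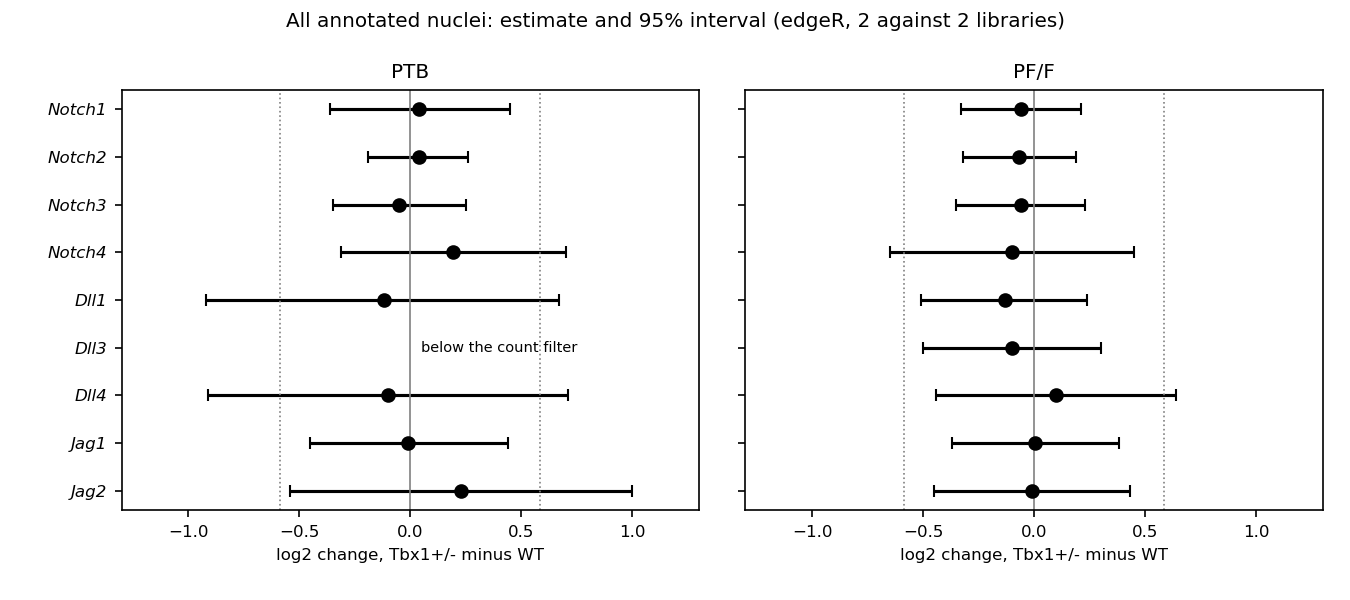
Log2 change of each gene (Tbx1+/- minus WT, horizontal axis) over all annotated nuclei of either tissue, as edgeR's estimate (point) with its 95% interval (bar) from 2 against 2 libraries; dotted lines mark 1.5-fold. All 17 estimates lie between -0.13 and 0.23, and Dll3 in the PTB fell below the count filter.

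The difference between the tissues' genotype effects was tested as an interaction over all 8 libraries. Of the 9 members 0 were called, with 0 at an unadjusted p under 0.05 by edgeR or DESeq2, and of all 22148 genes 0% were called (199 at an unadjusted p under 0.05 by edgeR and 101 by DESeq2). In the sums over all annotated nuclei, 0 of the 39 other pathway genes were called in either tissue and 0 were at an unadjusted p under 0.05, with 26 estimates above and 13 below 0 in the PTB (median 0.03) and 19 above and 20 below in the PF/F (median -0.0040). The share of all genes called was 0% in both.

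Within single types, 72 tests of members could be made in 15 PTB types and 73 in 16 PF/F types. None was called, among 187198 tests of all genes in the PTB (0% called) and 167207 in the PF/F (5.98e-04%, that is 1 call, Ttr in Purkinje nuclei, named here after its value was seen). Members' estimates were above 0 in 36 and below 0 in 36 PTB tests and in 32 and 41 PF/F tests. Groups did not overlap in 21 of the 72 PTB tests, against 26.7% for all genes, and in 20 of the 73 PF/F tests, against 24.4%. An unadjusted p under 0.05 was reached by 2 of the PTB tests and 0 of the PF/F tests, where 1.81% and 1.32% of the tests of all genes did, and by 0 with DESeq2. Of the other pathway genes, 0 of 450 PTB tests and 0 of 435 PF/F tests in single types were called by edgeR or DESeq2, with 6 and 5 at an unadjusted p under 0.05 by edgeR and 1 and 0 by DESeq2.

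The first of the 2 was Notch3 in CT4, at 18.2 and 18.6 CPM in WT and 9.23 and 10.1 CPM in Tbx1+/- libraries on 17, 19, 7 and 11 UMIs, a log2 change of -0.93 ± 0.41 (SE, edgeR adjusted p = 1.00). The other was Jag2 in the hypertrophic chondrocyte/osteoblast type, at 2.19 and 1.58 CPM in WT and 4.81 and 3.53 CPM in Tbx1+/- libraries on 12, 6, 29 and 18 UMIs, a change of 1.10 ± 0.42 (edgeR adjusted p = 1.00). Both were named after their values were seen. In PF/F endothelial nuclei Dll4 had too few UMIs for the test, with 30 in all. Its 4 values, given above, were higher in both Tbx1+/- libraries than in either WT library. Groups did not overlap for 1194 of the 4447 genes that could be tested in these nuclei. Dll4 overlapped between genotypes in the PF/F endothelial barcodes outside the annotation, as given above. Jag2 in the annotated endothelial nuclei was tested, with a change of 0.95 ± 0.53 (95% interval -0.22 to 2.12, edgeR adjusted p = 1.00) and groups that did not overlap. The sum of the erythroid markers Hbb-bs, Hbb-bt and Hba-a1 in these nuclei was 260 to 831 CPM in WT and 588 to 17095 CPM in Tbx1+/- libraries, and its part in these values was not tested.

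Among the PTB barcodes outside the annotation, the endothelial group was also compared between genotypes, a comparison added after its levels had been seen. Of 8 members tested 0 were called, among 15325 genes of which 0% were called (251 at an unadjusted p under 0.05 by edgeR, 105 by DESeq2). Dll1, at 19.2 and 21.2 CPM in WT and 14.5 and 13.7 CPM in Tbx1+/- libraries, had a log2 change of -0.52 ± 0.20 (SE, 95% interval -1.01 to -0.04, edgeR adjusted p = 1.00). By edgeR it was the 1 member of 8 at an unadjusted p under 0.05, against 1.64% of all genes, and by DESeq2 0 members were. Dll1 was also the 1 member of 8 whose groups did not overlap, where 25.3% of all genes did not. Notch4 changed by 0.04 ± 0.15, Notch1 by -0.08 ± 0.14 and Dll4 by -0.43 ± 0.40. In the mural group 0 of 7 members were called and 0 were at an unadjusted p under 0.05, among 13113 genes (0% called, 2.62% or 344 at an unadjusted p under 0.05 by edgeR, 116 by DESeq2), and Notch3 changed by -0.44 ± 0.30 (95% interval -1.16 to 0.28).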

How the data were processed

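The deposited counts were whole UMIs per gene and barcode, made by the authors with Cell Ranger 7.0.0 in intron mode on mm10, without their later SoupX correction for free RNA. Cell types came from the authors' deposited annotation. No doublet removal was described, so leaving out the 8% of nuclei with most UMIs served as an alternative. Raw UMIs were summed per library and type (Python 3.11.15, pandas 2.3.3) and expressed per 1000000 UMIs. Genotypes were compared with edgeR 4.0.16 in R 4.3.3 (filterByExpr, TMM, quasi-likelihood test, Benjamini-Hochberg adjustment over all genes tested, SE as log2 change over the square root of F), called at an adjusted p under 0.05 and over 1.5-fold, and with DESeq2 1.42.0. An exact two-sided permutation test of 2 against 2 libraries cannot go below 0.33. Nothing shows that pools of a batch were independent beyond their animals, so p-values measure the spread between these pools. In simulated counts where 200 genes had a log2 change of 1, edgeR recovered 57% of them in all annotated PTB nuclei (20250 genes) and 62% in the PF/F (20756 genes), with 10 and 8 false calls. The simulated libraries were independent, without a shift shared by same-numbered libraries, and the 200 genes were drawn from all genes tested. These shares thus do not give the power for scarce members, for single types or for the real libraries. The paper's methods describe a repeat with a second set of mice but do not tie replicate numbers to it. Replicate numbers were taken here to mark these batches. The deviations of same-numbered libraries from their genotype means correlated at 0.478 (PTB) and 0.55 (PF/F) over genes. No replicate term was in the main fits, so a shift shared by same-numbered libraries counts as error in their SEs, intervals and p-values. Intervals with the replicate block are not given here. Other alternatives were a replicate block, RLE factors, no filter on low counts, nuclei with at least 2000 genes, and leaving out each library. Upper limits at 0 are 3 counts over the 4 libraries, for counting error only.

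The members, the 39 pathway genes and the markers were chosen with earlier results of these data known. Named are the 9 members, Tbx1, up to 3 pathway genes per role with the highest mean in any type, called genes, and the 3 genes most like each member that reaches 10 CPM (pseudocount 1); others are marked. Some items that meet this rule, and 2 PF/F types by name, are not reported here. Coordinates are GENCODE's for GRCm38, where 99.607% of 32285 identifiers matched, and promoters are RefSeq's for GRCm38.p6, where 9 of 9 members and 30 of 39 pathway genes had an entry.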

Additional observations from a re-analysis of the deposited data

Results flagged for a closer look

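A library stood far from the other 3 of its tissue in 3 of the 14 leading types examined (members at 10 CPM or more in their leading type of a tissue); Dixon's test at the 95% level, used here, does this by chance in about 1 set of 20. Notch1 in PF/F pericytes was at 42.6 CPM in Tbx1+/- replicate 1, on 2 UMIs, against 172 to 192 CPM in the others. In the same library Notch3 in pericytes was at 682 CPM, on 32 UMIs, against 516 to 518 CPM. Dll3 in oligodendrocytes was at 40.1 CPM in PF/F Tbx1+/- replicate 2, on 81 UMIs, against 29.2 to 29.7 CPM.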

How the results depend on the processing

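The number of members called between genotypes was 0 under all alternatives run, in both tissues' sums, in single types, for the difference between tissues and in the 2 marker groups outside the annotation (there without the limits on nuclei, which were not run), and so was the number of pathway genes called in the sums. The replicate block gave 0 calls in each of these and changed no call. In single PF/F types DESeq2 called 2 genes where edgeR called 1. In the endothelial marker group, all genes called numbered 0, but 88 without WT replicate 2 and 7 without WT replicate 1, with 0 members among them, and in the mural group 1 without WT replicate 1. Levels moved by more than their SD in 4 cases: Notch2 in meningeal nuclei was 171 CPM in nuclei with at least 2000 genes and 213 CPM without the 8% of nuclei with most UMIs, and in the 16 pericytes with at least 2000 genes Notch3 was 282 CPM and Jag1 30.9 CPM. The cause was not tested. Log2 changes of members, none called, turned sign as follows. In nuclei with at least 2000 genes, Dll4 was 0.05 in the PTB, and Jag1 -0.18 and Jag2 0.10 in the PF/F; without the 8% of nuclei with most UMIs, Dll4 was 0.04 and Jag1 0.01 in the PTB, and Jag2 0.03 in the PF/F. Leaving out 1 library at a time gave PTB ranges of -0.10 to 0.21 (Notch1), -0.01 to 0.09 (Notch2), -0.16 to 0.06 (Notch3), -0.40 to 0.11 (Dll1), -0.36 to 0.13 (Dll4), -0.17 to 0.20 (Jag1) and -0.14 to 0.53 (Jag2), and PF/F ranges of -0.15 to 0.03 (Notch3), -0.23 to 0.04 (Notch4), -0.20 to 0.01 (Dll3), -0.10 to 0.27 (Dll4), -0.11 to 0.09 (Jag1) and -0.19 to 0.20 (Jag2); the lone library left in a group is assumed to vary like the others. Notch3 in CT4 stayed negative in all alternatives (-1.02 to -0.61, the last without the 8% of nuclei with most UMIs). Jag2 in the hypertrophic chondrocyte/osteoblast type stayed positive (0.82 to 1.39). Both were picked for their unadjusted p and their groups did not overlap, so leaving out 1 library could hardly turn the sign. The steady signs are therefore no check on these picks. Depth limits the 74 pericytes and 183 endothelial nuclei of the PF/F most.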
